A study of Homo sapiens with 32 samples.

Results

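The genes described here are 10 genes by which epithelial and mesenchymal states of carcinoma cells are read: CDH1, CDH2, VIM, ZEB1, SNAI2, ANXA1, CAV1, CD44, MET and AXL. They were taken by gene symbol from the 58212 symbols of 6 count tables, and measured by RNA sequencing in 32 libraries, in 16 groups of 2, of 4 human prostate cancer cell lines. LNCaP needs androgen and came from a lymph node metastasis; C4-2 descends from it and grows without. 22Rv1 also grows after castration and came from a xenograft. PC3, from a bone metastasis, grows independently of androgen. In one experiment each line carried shCSN5, a short hairpin RNA against CSN5 (gene COPS5, the catalytic subunit of the COP9 signalosome), or a scramble shRNA. In the other, cells were given CSN5i-3, an inhibitor of CSN5, or DMSO: LNCaP and 22Rv1 at 5 µM and PC3 at 10 µM. In the C4-2 inhibitor experiment the labels contradict each other: libraries titled C5i carry a description of DMSO, and those titled NT one of CSN5i-3 at 1 µM. They are compared only as titled C5i against titled NT, and no effect of the inhibitor is read from them. How long cells were treated is not stated in the labels.

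Epithelial cells hold together through E-cadherin, and in an epithelial-mesenchymal transition transcription factors of the ZEB, Snail and Twist families repress its gene while N-cadherin, vimentin and matrix genes come up. The change is often partial, so that cells carry genes of both states. In prostate cancer, luminal androgen-responsive lines such as LNCaP are epithelial, and PC3 is the usual example of a line with mesenchymal features. The COP9 signalosome takes the ubiquitin-like protein NEDD8 off cullin-RING ubiquitin ligases, and such ligases control the turnover of Snail, ZEB and many signalling proteins.

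The shRNA libraries held 20.6 to 32.5 M counts each and the inhibitor libraries 29.5 to 50.9 M. COPS5 was lower with shCSN5 in every line, for instance 2.83 and 1.79 CPM (counts scaled per M of the library total) in LNCaP shCSN5 libraries against 54.1 and 53.2 CPM in scramble libraries; the smallest fall was in 22Rv1, at -2.68 ± 0.11 on the log2 scale. Luminal prostate markers were present in every library of LNCaP, C4-2 and 22Rv1 (sum of 10 genes, 2510 to 9030 CPM), and lower in PC3 (574 to 962 CPM), where KLK2 was at 0. Markers of leukocytes, fibroblasts and endothelium were low: the fibroblast sum of 7 genes did not exceed 66.4 CPM, the leukocyte sum of 7 genes 49.2 CPM and the endothelial sum of 4 genes 18.5 CPM. Genes that a count table does not list enter these sums as 0. PECAM1, an endothelial marker, is listed nowhere. The LNCaP and C4-2 inhibitor tables lack 4 of the leukocyte markers each, and 3 and 4 of the fibroblast markers. For replicate 2 of PC3 shCSN5 a characteristic mentions drug treatment, while its title and description, both of shCSN5, decided its group. No label states that the libraries of a group come from separate cultures, so the p-values speak only of the spread between libraries. In bulk RNA, fewer cells of a type and less RNA per cell cannot be told apart.

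The promoters below are shown because ANXA1, CD44 and MET rose together in 22Rv1 with both shCSN5 and CSN5i-3, while AXL was measured at more than a few counts in PC3 only. Each is the 250 bases before the RefSeq start in GRCh38.p14, on the plus strand; no source used here names the authors' build. Of the 10 genes, 8 matched the RefSeq promoter table, with 18 windows in all. CDH1 and SNAI2 did not match. Capitals mark the motifs searched for on both strands: CACCTG, the E-box core bound by ZEB and Snail proteins; then the AP-1 consensus, written as TGANTCA; and last the TATA box, whose letters are TATAAA. The motifs do not overlap in these windows.
ANXA1, chr9:73151615-73151864: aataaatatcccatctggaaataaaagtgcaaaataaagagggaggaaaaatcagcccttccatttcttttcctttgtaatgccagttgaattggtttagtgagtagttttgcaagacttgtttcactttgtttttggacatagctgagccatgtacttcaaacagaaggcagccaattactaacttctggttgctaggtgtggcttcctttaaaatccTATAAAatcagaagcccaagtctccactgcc
CD44, chr11:35138921-35139170: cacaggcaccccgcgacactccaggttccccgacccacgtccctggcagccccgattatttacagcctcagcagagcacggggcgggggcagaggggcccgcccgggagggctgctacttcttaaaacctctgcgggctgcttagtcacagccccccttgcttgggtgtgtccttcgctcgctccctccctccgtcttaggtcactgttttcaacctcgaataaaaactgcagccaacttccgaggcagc
MET, chr7:116671946-116672195: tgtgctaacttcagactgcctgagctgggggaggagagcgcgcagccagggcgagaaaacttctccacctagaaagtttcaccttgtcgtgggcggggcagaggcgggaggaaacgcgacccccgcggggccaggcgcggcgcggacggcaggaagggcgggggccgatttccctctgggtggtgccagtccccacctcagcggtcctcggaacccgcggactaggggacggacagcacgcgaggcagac
AXL, chr19:41218973-41219222: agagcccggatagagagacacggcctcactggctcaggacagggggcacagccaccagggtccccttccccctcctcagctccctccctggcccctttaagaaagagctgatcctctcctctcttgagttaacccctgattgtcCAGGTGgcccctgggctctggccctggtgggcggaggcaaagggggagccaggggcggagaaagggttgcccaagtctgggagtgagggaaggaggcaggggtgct
The ANXA1 window holds TATAAA, whose first base is at -31 from the start, and neither of the other motifs. None of the 3 motifs is in the CD44 or the MET window. The AXL window shown, 1 of 2, holds the E-box core as its reverse complement, CAGGTG, at -106, and the other AXL window holds none of the 3 motifs. CAV1 also rose in 22Rv1 with both treatments, and its 3 windows, not shown, hold none of the motifs. Among the other windows not shown, the E-box core is in 2 of the 7 of ZEB1, and TGANTCA and TATAAA are in 1 of the 2 of CDH2. Of 35116 promoter windows, 17.5% hold CACCTG on either strand, 6.57% TGANTCA and 10.7% TATAAA. A match describes the letters and says nothing of binding.

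In scramble libraries the lines stood apart in these genes. CDH1, the gene of E-cadherin, was at 815 and 821 CPM in LNCaP scramble libraries, 622 and 574 CPM in C4-2, 426 and 434 CPM in 22Rv1, and 0.930 and 1.18 CPM in PC3. The lines thus order LNCaP, C4-2, 22Rv1, PC3, with no overlap between neighbours, though LNCaP with PC3 and C4-2 with 22Rv1 come from separate count tables and only differences within a table were tested. VIM, the gene of the mesenchymal intermediate filament vimentin, had 1480 and 1507 CPM in PC3, 20.7 and 22.2 CPM in 22Rv1, 15.3 and 17.1 CPM in C4-2, and 5.89 and 6.51 CPM in LNCaP. Between 22Rv1 and C4-2 scramble libraries VIM did not pass the test, at 0.30 ± 0.15 (adjusted p = 0.113; with library totals as the scale it passed, at 0.41 and adjusted p = 0.0401).

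In the PC3 scramble libraries against those of LNCaP, the 10 genes were all tested and all called: CDH1 was lower, at -9.64 ± 0.14 (log2 fold change ± SE, n = 2 libraries per group, edgeR adjusted p = 2.26e-06), and the other 9 higher, where 79.7% of all genes tested were called, 41.6% higher and 38.2% lower. MET, the receptor of hepatocyte growth factor, was at 737 and 618 CPM in PC3 against 1.36 and 0.879 CPM in LNCaP (9.19 ± 0.21), and ANXA1, annexin A1, at 256 and 224 CPM in PC3 against 1.295 and 0.9495 CPM in LNCaP (7.70 ± 0.17). SNAI2, the gene of the Snail-family repressor Slug, was at 36.2 and 33.1 CPM in PC3 against 2.27 and 2.22 CPM in LNCaP (3.92 ± 0.13). Of these 9, 5 rest on 0 to 2 counts in LNCaP and passed the low-count filter through PC3 only, which fixed their direction. Each of these 5 is given as a bound against a floor of 3 counts (in the 2 libraries together) or as a ratio with its 95% exact interval. Of the 5 genes with more than 3 counts in both groups, 4 were higher and 1 lower. CDH2 (N-cadherin) was at 165 and 145 CPM in PC3 and had no count in LNCaP, which makes it at least 3090-fold higher. CAV1, the main coat protein of caveolae, was at 651 and 575 CPM in PC3 and likewise without a count in LNCaP, at least 12200-fold higher. AXL, a receptor tyrosine kinase for GAS6, had 496 and 549 CPM in PC3 and 1 count over both LNCaP libraries (30800-fold, interval 5530 to 1220000). ZEB1, the zinc-finger repressor of CDH1, had 53.2 and 44.4 CPM in PC3 and 1 count in LNCaP (2920-fold, interval 524 to 115000). CD44, the hyaluronan receptor, had 336 and 299 CPM in PC3 and 2 counts in LNCaP (9470-fold, interval 2620 to 78200). The counting intervals cover counting error only.

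22Rv1 stood between C4-2 and PC3 for several of these genes. Of the 8 tested in scramble libraries of 22Rv1 against C4-2, 5 were higher and 2 lower, where 65.2% of all genes tested were called, 35.5% higher and 29.8% lower. CDH2, CAV1 and ANXA1 had at most 2 counts in C4-2 and passed the low-count filter through 22Rv1 only, which fixed their direction. Of the 5 genes above the floor in both groups, 2 were higher and 2 lower. CD44 was at 91.2 and 96.8 CPM in 22Rv1, against 4 counts over both C4-2 libraries, 1 of which had none (9.99 ± 0.36, adjusted p = 2.72e-06). On so few counts the size of that difference is uncertain, and it ran from 9.09 to 14.02 with 1 library left out. MET was at 11.8 and 11.9 CPM in 22Rv1, against 0.762 and 0.940 CPM in C4-2 (3.69 ± 0.21, adjusted p = 1.32e-05). SNAI2 went the other way, at 0.874 and 0.744 CPM in 22Rv1 against 10.5 and 10.9 CPM in C4-2 (-3.83 ± 0.21, adjusted p = 1.1e-05). CDH2 was at 14.4 and 13.5 CPM in 22Rv1 with no count in C4-2 (at least 230-fold higher), CAV1 had 100 counts against 1 (111-fold, interval 19.4 to 4420), and ANXA1 172 counts against 2 (95.3-fold, interval 26 to 793). AXL had no count in either group. 22Rv1 thus carried CD44, MET, CDH2 and CAV1 RNA beside CDH1 RNA, and C4-2 had more SNAI2.

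**Figure D1:**
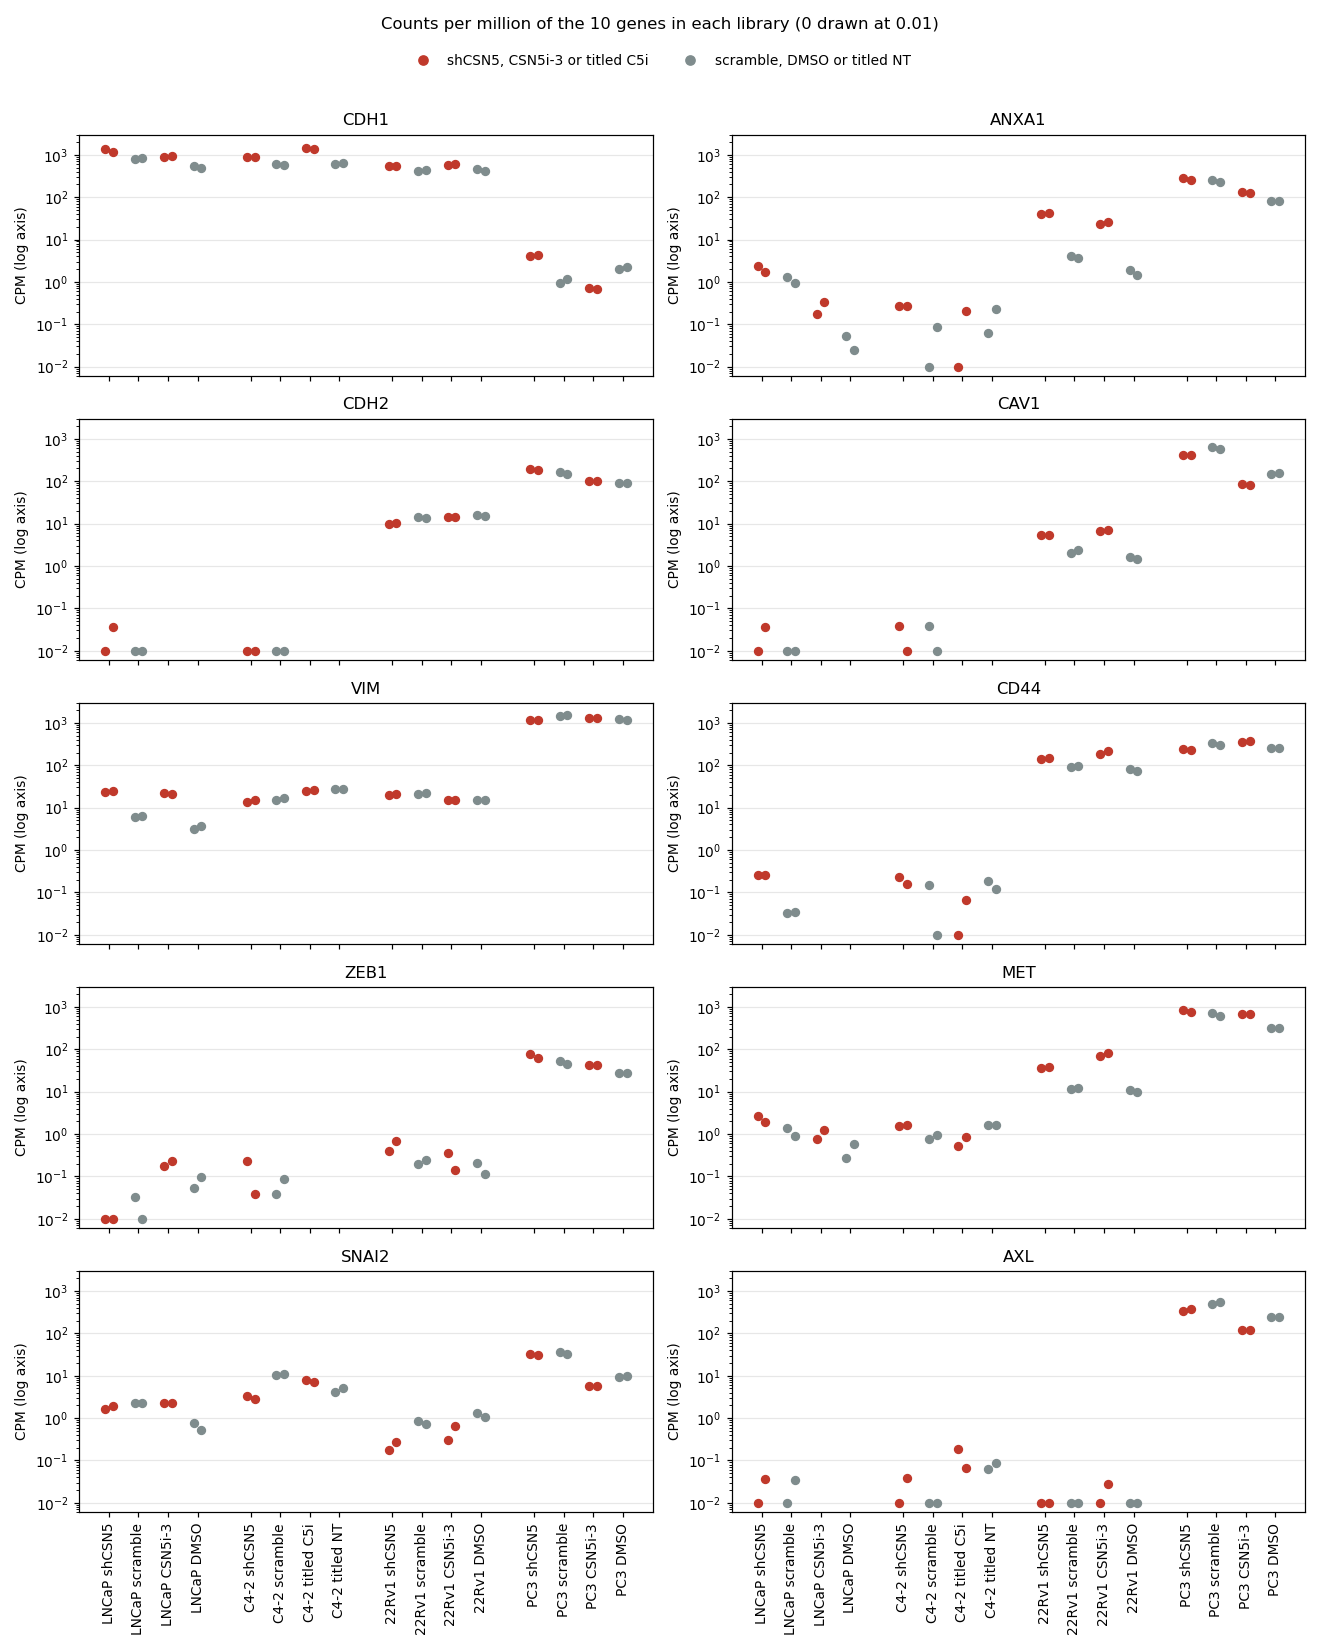
CPM of each of the 10 genes (vertical log axes, 0 drawn at 0.01) in each library, with the 4 groups of each line side by side along the horizontal axis: red points are shCSN5, CSN5i-3 or titled C5i libraries, grey points scramble, DMSO or titled NT libraries, and a gap is a gene not listed in that table. CDH1 lies above 400 CPM in every library of LNCaP, C4-2 and 22Rv1 and below 5 CPM in PC3, while AXL exceeds 100 CPM in PC3 and stays below 0.2 CPM elsewhere.

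With shCSN5, the genes that passed the test and their directions were not the same in every line. In LNCaP 5 of the 10 had enough counts to be tested, and 3 rose (CDH1, VIM, MET) and 0 fell, where 35.7% of all genes tested were called, 18.3% higher and 17.4% lower. In C4-2 4 were tested, 2 rose (CDH1, MET) and 1 fell (SNAI2), where 32.0% of all genes were called, 15.7% higher and 16.2% lower. In 22Rv1 8 were tested, 5 rose (CDH1, ANXA1, CAV1, CD44, MET) and 2 fell (CDH2, SNAI2), against 43.9% of all genes, 22.6% higher and 21.3% lower. In PC3 10 were tested, 1 rose (CDH1) and 4 fell (VIM, CAV1, CD44, AXL), against 16.7% of all genes, 10.3% higher and 6.41% lower. The PC3 count fell to 1 without shCSN5 replicate 1 and 2 without shCSN5 replicate 2, and the LNCaP count to 1 without scramble replicate 2.

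With CSN5i-3, the LNCaP table gave 4 testable genes, all 4 of which rose (CDH1, VIM, SNAI2, MET), where 52.6% of all genes tested were called, 26.2% higher and 26.5% lower. That table does not list CDH2, CAV1, CD44 or AXL, as genes with low counts are left out of it. In 22Rv1 8 were tested and 4 rose (ANXA1, CAV1, CD44, MET), with 0 lower, where 24% of all genes were called, 11.8% higher and 12.2% lower. In PC3 10 were tested and 10 called, 6 higher (CDH2, VIM, ZEB1, ANXA1, CD44, MET) and 4 lower (CDH1, SNAI2, CAV1, AXL), but there 77.1% of all genes were called, 38.5% higher and 38.5% lower. The PC3 DMSO libraries differed from each other least of all groups, with a chi-square of 1.72 per gene, and the LNCaP shCSN5 libraries most, at 71.3, followed by 22Rv1 CSN5i-3 at 57.4.

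**Figure D2:**
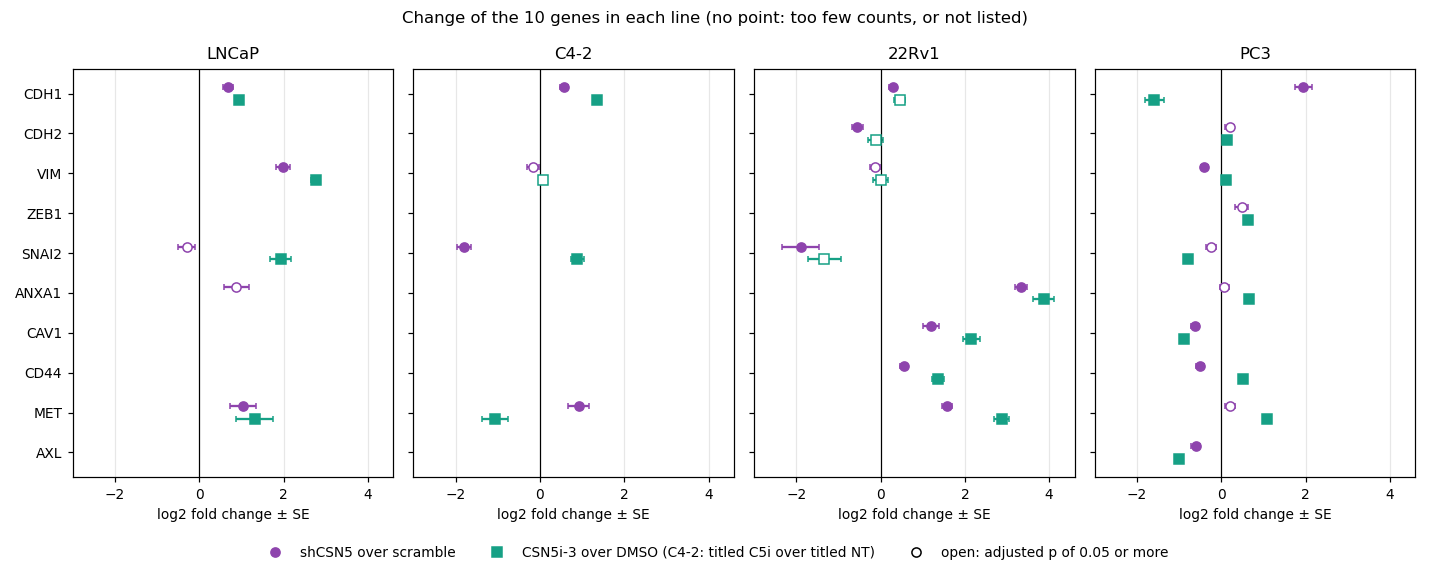
Log2 fold change ± SE (horizontal axis) of each gene with shCSN5 over scramble (purple circles) and with CSN5i-3 over DMSO (green squares; in C4-2 the pair titled C5i over the pair titled NT) in the 4 lines, n = 2 libraries per group, filled where the adjusted p was under 0.05. CDH1 lies right of 0 with shCSN5 in all 4 lines, and in PC3 its points for shCSN5 (1.95) and CSN5i-3 (-1.59) lie on opposite sides of 0.

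CDH1 rose with shCSN5 in all 4 lines. In LNCaP it was at 1365 and 1178 CPM in shCSN5 libraries, against 815 and 821 CPM in scramble libraries (0.67 ± 0.12, adjusted p = 0.0094). The groups did not overlap. The call was lost without scramble replicate 1 or 2, while the change itself stayed at 0.66 and 0.68. In C4-2 the shCSN5 libraries had 869 and 907 CPM and the scramble libraries 622 and 574 CPM (0.58 ± 0.094, adjusted p = 0.00328). In 22Rv1 it was at 543 and 553 CPM with shCSN5, against 426 and 434 CPM with scramble (0.29 ± 0.075, adjusted p = 0.0099; 0.0685 without shCSN5 replicate 2). In PC3, where E-cadherin RNA was scarce, 4.10 and 4.43 CPM stood in shCSN5 libraries against 0.930 and 1.18 CPM in scramble libraries (1.95 ± 0.21, adjusted p = 0.00801). The PC3 change is the largest on the log2 scale and rests on 265 counts in shCSN5 libraries against 59 in scramble libraries; the PC3 level with shCSN5 stayed below 5 CPM.

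CSN5i-3 moved CDH1 up in LNCaP, at 5 µM, and down in PC3, at 10 µM. LNCaP CSN5i-3 libraries had 900.0 and 929 CPM, against 540 and 495 CPM in DMSO libraries (0.93 ± 0.060, adjusted p = 2.27e-05). In 22Rv1 the 575 and 618 CPM with CSN5i-3 lay above the 450.0 and 417 CPM with DMSO, just short of the threshold (0.46 ± 0.13, adjusted p = 0.0503; 0.0414 with library totals as the scale). In PC3 it was at 0.728 and 0.689 CPM with CSN5i-3, against 2.02 and 2.26 CPM with DMSO (-1.59 ± 0.23, adjusted p = 8.93e-09). PC3 thus had 62 CDH1 counts with CSN5i-3 against 213 with DMSO, with no overlap between the groups.

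Of the 2 repressors, ZEB1 was essentially a PC3 gene. In PC3 it was at 79.4 and 63.8 CPM with shCSN5, against 53.2 and 44.4 CPM with scramble, a difference that missed the threshold (0.48 ± 0.15, adjusted p = 0.0858; 0.00813 without the low-count filter). With CSN5i-3 it rose in PC3, at 43.5 and 41.6 CPM against 27.7 and 26.9 CPM with DMSO (0.64 ± 0.047, adjusted p = 1.96e-18). The PC3 groups did not overlap in either experiment. Outside PC3 no library exceeded 0.674 CPM, and ZEB1 was below the low-count filter in each comparison of a treated group with its control; in 22Rv1 24 counts with shCSN5 stood against 10 with scramble (ratio 2.39, 95% exact interval 1.1 to 5.6), and in LNCaP 17 with CSN5i-3 against 6 with DMSO (2.66, interval 0.999 to 8.22).

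SNAI2 fell with shCSN5 in C4-2 and 22Rv1. In C4-2 it was at 3.26 and 2.85 CPM in shCSN5 libraries, against 10.5 and 10.9 CPM in scramble libraries (-1.80 ± 0.16, adjusted p = 0.00025). In 22Rv1 the libraries held 0.176 and 0.270 CPM with shCSN5, against 0.874 and 0.744 CPM with scramble (-1.89 ± 0.44, adjusted p = 0.00513), that is 10 counts against 36, and the call was lost without shCSN5 replicate 1 (adjusted p = 0.054) and in DESeq2 (0.122). In LNCaP and PC3 it did not pass with shCSN5, at -0.30 ± 0.21 (adjusted p = 0.3) and -0.23 ± 0.12 (adjusted p = 0.221).

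With CSN5i-3, SNAI2 rose in LNCaP, at 2.26 and 2.29 CPM against 0.770 and 0.517 CPM with DMSO (1.93 ± 0.25, adjusted p = 0.000595). It fell in PC3, at 5.59 and 5.59 CPM against 9.29 and 9.99 CPM with DMSO (-0.79 ± 0.093, adjusted p = 4.11e-11). In 22Rv1 the 0.308 and 0.648 CPM with CSN5i-3 were below the 1.32 and 1.06 CPM with DMSO without passing (-1.33 ± 0.39, adjusted p = 0.0521; 0.00118 without the low-count filter). The LNCaP scramble libraries of the other experiment had 2.27 and 2.22 CPM, near the CSN5i-3 libraries and above the DMSO libraries. The luminal marker sum, 3160 to 3220 CPM in LNCaP CSN5i-3 libraries against 6540 to 6650 CPM with DMSO, moved in the same comparison, and its part in the result was not tested.

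The mesenchymal structural genes CDH2 and VIM did not move together. VIM rose in LNCaP with both treatments: 23.5 and 24.2 CPM with shCSN5 against 5.89 and 6.51 CPM with scramble (1.98 ± 0.16, adjusted p = 0.000591), and 21.8 and 21.1 CPM with CSN5i-3 against 3.21 and 3.59 CPM with DMSO (2.76 ± 0.11, adjusted p = 2.56e-06). The treated LNCaP libraries lay near the 15.1 to 22.2 CPM of 22Rv1 control libraries and far under the 1182 CPM or more of every PC3 library. Leukocytes and fibroblasts also carry vimentin. The sum of 7 fibroblast markers in LNCaP was 9.41 to 18.5 CPM with shCSN5 against 13.6 to 15.4 CPM with scramble, and 10.1 to 10.4 CPM with CSN5i-3 against 6.87 to 8.37 CPM with DMSO. COL1A2, DCN and PDGFRA are not listed in the LNCaP inhibitor table and enter the latter sums as 0. The sum of 7 leukocyte markers in LNCaP was 1.47 to 1.72 CPM with shCSN5 against 0.259 to 0.633 CPM with scramble, with PTPRC, CD3E, CD2 and MS4A1 at 0 in every one of these libraries. With CSN5i-3 it was 24 to 24.3 CPM against 0.371 to 0.492 CPM with DMSO, nearly all of it CD68, a lysosomal protein of macrophages and many other cells, and PTPRC, the pan-leukocyte gene, is not listed in that table. The part of these markers in the VIM result was not tested. In C4-2, the derivative of LNCaP, shCSN5 libraries had 13.7 and 14.9 CPM against 15.3 and 17.1 CPM with scramble, which did not pass (-0.17 ± 0.14, adjusted p = 0.408). In 22Rv1 VIM passed with neither treatment, at -0.14 ± 0.12 with shCSN5 (adjusted p = 0.366) and 0.00 ± 0.17 with CSN5i-3 (adjusted p = 0.991). In PC3 VIM fell with shCSN5, at 1182 and 1198 CPM against 1480 and 1507 CPM with scramble (-0.40 ± 0.086, adjusted p = 0.0348). That call was lost without shCSN5 replicate 1 or 2, while the change itself stayed at -0.40 in each case. With CSN5i-3 VIM was slightly up in PC3, at 1299 and 1284 CPM against 1207 and 1187 CPM with DMSO (0.11 ± 0.022, adjusted p = 7.04e-06).

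CDH2 had 1 count over both LNCaP shCSN5 libraries and 0 with scramble, and no count in C4-2 shRNA libraries. It is not listed in the LNCaP inhibitor table. In 22Rv1 CDH2 fell with shCSN5, at 9.65 and 10.3 CPM against 14.4 and 13.5 CPM with scramble (-0.55 ± 0.13, adjusted p = 0.00618; 0.0892 without shCSN5 replicate 1). With CSN5i-3 it was at 13.9 and 14.6 CPM in 22Rv1, against 15.6 and 15.4 CPM with DMSO, and did not pass (-0.12 ± 0.17, adjusted p = 0.657). In PC3 the shCSN5 libraries had 193 and 181 CPM against 165 and 145 CPM with scramble (0.20 ± 0.10, adjusted p = 0.228), and the CSN5i-3 libraries 103 and 103 CPM against 93.1 and 93.2 CPM with DMSO, a small rise that passed (0.15 ± 0.032, adjusted p = 4.62e-05).

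In 22Rv1, ANXA1, CAV1 and CD44 rose with both treatments. ANXA1, a calcium-dependent membrane-binding protein whose N-terminal peptides act on formyl peptide receptors, was at 39.1 and 41.8 CPM with shCSN5 against 4.03 and 3.68 CPM with scramble (3.33 ± 0.14, adjusted p = 3.64e-08). With CSN5i-3 it was at 23.3 and 26.1 CPM against 1.93 and 1.43 CPM with DMSO (3.87 ± 0.24, adjusted p = 0.000573). It was the largest change of the 10 genes in either 22Rv1 experiment among those tested. CAV1 had 5.33 and 5.35 CPM with shCSN5 against 2.04 and 2.40 CPM with scramble (1.19 ± 0.18, adjusted p = 0.000382), and 6.79 and 6.98 CPM with CSN5i-3 against 1.65 and 1.43 CPM with DMSO (2.16 ± 0.21, adjusted p = 0.00148). CD44 had 143 and 145 CPM with shCSN5 against 91.2 and 96.8 CPM with scramble (0.55 ± 0.080, adjusted p = 0.000269), and 183 and 214 CPM with CSN5i-3 against 81.1 and 73.5 CPM with DMSO (1.36 ± 0.15, adjusted p = 0.00205). In each of these 6 comparisons both treated libraries lay above both controls, and each call held without any 1 library.

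Among the basal prostate markers, KRT15 rose beside these genes in 22Rv1. The sum of 5 basal markers was 15.1 to 15.3 CPM with shCSN5 against 0.579 to 0.825 CPM with scramble, and 11.4 to 15.1 CPM with CSN5i-3 against 0.814 to 1.06 CPM with DMSO. Nearly all of it was KRT15, a basal keratin, at 14.6 and 14.7 CPM with shCSN5 and 14.7 and 11.2 CPM with CSN5i-3. KRT5, KRT14, TP63 and KRT6A did not exceed 0.27 CPM in any treated 22Rv1 library. The fibroblast marker sum was also higher with CSN5i-3, at 34.0 to 34.4 CPM against 14.4 to 15.8 CPM with DMSO. With shCSN5 it was at 22.9 to 23.7 CPM against 17.5 to 18 CPM with scramble. Most of the CSN5i-3 rise was LUM, at 24.6 and 27.9 CPM against 10.1 and 8.79 CPM with DMSO. COL1A1 overlapped between these groups, at 7.69 and 3.89 CPM against 2.67 and 5.28 CPM, and PDGFRA was lower. The neuroendocrine marker sum was lower, at 92.4 to 112 CPM with CSN5i-3 against 215 to 240 CPM with DMSO, and 192 to 195 CPM with shCSN5 against 215 to 237 CPM with scramble. Nearly all of that sum was ENO2 and SYP. CHGA went the other way with shCSN5, at 1.41 and 1.21 CPM against 0.631 and 0.537 CPM with scramble. The part of any of these in the result was not tested.

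The same 3 genes gave other patterns elsewhere. In PC3 CAV1 fell with both treatments, at 425 and 410 CPM with shCSN5 against 651 and 575 CPM with scramble (-0.63 ± 0.096, adjusted p = 0.017; 0.0535 and 0.0882 without shCSN5 replicate 1 or 2), and at 83.7 and 81.7 CPM with CSN5i-3 against 151 and 155 CPM with DMSO (-0.88 ± 0.031, adjusted p = 2.73e-33). CD44 fell in PC3 with shCSN5, at 243 and 229 CPM against 336 and 299 CPM with scramble (-0.50 ± 0.098, adjusted p = 0.0283; 0.127 and 0.215 without shCSN5 replicate 1 or 2). It rose in PC3 with CSN5i-3, at 362 and 367 CPM against 255 and 251 CPM with DMSO (0.53 ± 0.025, adjusted p = 3.25e-27). ANXA1 in PC3 was at 278 and 253 CPM with shCSN5 against 256 and 224 CPM with scramble, overlapping groups that did not pass (0.08 ± 0.11, adjusted p = 0.656), and rose with CSN5i-3, at 130.4 and 127 CPM against 80.9 and 80.7 CPM with DMSO (0.67 ± 0.032, adjusted p = 3.67e-27).

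In LNCaP ANXA1 was scarce. It was at 2.36 and 1.68 CPM with shCSN5 against 1.295 and 0.9495 CPM with scramble, short of the threshold (0.88 ± 0.29, adjusted p = 0.06), and had 22 counts with CSN5i-3 against 3 with DMSO (ratio 6.87, 95% exact interval 2.06 to 35.9). CD44 had 14 counts with shCSN5 against 2 with scramble in LNCaP (7.43, interval 1.71 to 67.3), and in C4-2 ANXA1 had 14 counts against 2 (6.68, interval 1.53 to 60.5). These ratios are above 1 beyond counting error, have no test over libraries, and stand at levels under 0.4 CPM.

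Of the 2 receptor kinases, MET rose in each of the 3 lines with a low or middle level. In 22Rv1 it was at 35.4 and 38.9 CPM with shCSN5 against 11.8 and 11.9 CPM with scramble (1.58 ± 0.12, adjusted p = 2.09e-06), and at 70.6 and 80.9 CPM with CSN5i-3 against 10.9 and 9.73 CPM with DMSO (2.87 ± 0.18, adjusted p = 0.000573). In LNCaP, shCSN5 libraries had 2.61 and 1.90 CPM against 1.36 and 0.879 CPM with scramble (1.04 ± 0.31, adjusted p = 0.0434), and CSN5i-3 libraries 0.753 and 1.23 CPM against 0.265 and 0.591 CPM with DMSO (1.31 ± 0.44, adjusted p = 0.0388). In C4-2 it was at 1.57 and 1.62 CPM with shCSN5 against 0.762 and 0.940 CPM with scramble (0.92 ± 0.25, adjusted p = 0.0262). The 22Rv1 calls held without any 1 library, whereas those in LNCaP and C4-2 rest on 34 to 126 counts per group. The LNCaP call was lost with shCSN5 without scramble replicate 2 (adjusted p = 0.325) and with CSN5i-3 without CSN5i-3 replicate 2 (0.254), and the C4-2 call without any 1 of its libraries (0.0591 to 0.136); DESeq2 called none of these 3. In PC3 MET was at 866 and 775 CPM with shCSN5 against 737 and 618 CPM with scramble, which did not pass (0.20 ± 0.12, adjusted p = 0.272), and rose with CSN5i-3, at 674 and 675 CPM against 316 and 321 CPM with DMSO (1.08 ± 0.024, adjusted p = 1.32e-43).

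AXL was lower in PC3 with both treatments. It was at 340 and 381 CPM with shCSN5 against 496 and 549 CPM with scramble (-0.61 ± 0.11, adjusted p = 0.0238; 0.135 without shCSN5 replicate 1), and at 121 and 121 CPM with CSN5i-3 against 243 and 237 CPM with DMSO (-0.99 ± 0.028, adjusted p = 5.05e-38). In the other lines it had at most 8 counts in any group. Luminal prostate markers in PC3 summed to 593 to 614 CPM with CSN5i-3 against 949 to 962 CPM with DMSO, and 4 endothelial markers, nearly all of them KDR, to 3.96 to 4.28 CPM with CSN5i-3 against 16.2 to 16.5 CPM with DMSO. Their part in the PC3 results was not tested.

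The 2 PC3 control groups were unlike each other, which bears on any reading across the experiments. SNAI2 was at 36.2 and 33.1 CPM in PC3 scramble libraries and at 9.29 and 9.99 CPM in PC3 DMSO libraries. CAV1 had 651 and 575 CPM with scramble and 151 and 155 CPM with DMSO, and ANXA1 had 256 and 224 CPM with scramble and 80.9 and 80.7 CPM with DMSO. CDH1 was at 0.930 and 1.18 CPM with scramble and 2.02 and 2.26 CPM with DMSO. These levels come from separate tables and were not tested; vector, DMSO, culture and sequencing cannot be told apart.

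Whether the shCSN5 effect differed between lines was tested as an interaction. Between PC3 and LNCaP, 3 of the 10 genes differed, where 24.1% of all genes tested were called, 11% higher and 13.1% lower. The CDH1 effect was larger in PC3 by 1.22 ± 0.20 (1.95 in PC3, 0.67 in LNCaP, adjusted p = 0.00429), and the VIM effect lower by -2.44 ± 0.14 (-0.40 in PC3, 1.98 in LNCaP, adjusted p = 2.94e-05). The third, CD44, rests on 2 counts in the LNCaP scramble libraries, so the size of its difference has no meaning. CDH2, ZEB1, CAV1 and AXL had 0 or 1 count there and were tested only through PC3. Of the 5 genes with more than 3 counts in every group, 2 differed. Between 22Rv1 and C4-2, 1 of 8 genes tested was called, CDH1 at -0.32 ± 0.090 (0.29 in 22Rv1, 0.58 in C4-2, adjusted p = 0.0499), where 13.3% of all genes were called, 5.53% higher and 7.76% lower. Only 5 of the genes tested had more than 3 counts in every group, and CDH1 was the 1 called among them. That call was lost in DESeq2 (adjusted p = 0.107), with library totals as the scale (0.131) and without any 1 of 7 of the 8 libraries. Over the 4 lines together, 8 of the 10 differed somewhere, where 38.8% of all genes were called. The 4 of these with more than 3 counts in every group were CDH1 (adjusted p = 0.00016), VIM (1.11e-07), SNAI2 (8.94e-05) and MET (0.0009).

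CSN5i-3 and shCSN5 effects within a line were also compared as interactions, each against its own control. In LNCaP, VIM rose more with CSN5i-3, by 0.69 ± 0.18 (adjusted p = 0.0266), and SNAI2 by 2.14 ± 0.30 (adjusted p = 0.00231), where 21.3% of all genes tested were called, 6.83% higher and 14.5% lower. The VIM difference was lost without any 1 of 6 of the 8 libraries (adjusted p of 0.0503 to 0.123). In 22Rv1 the effect of CSN5i-3 was larger for MET, by 1.31 ± 0.18 (adjusted p = 0.0118), and for CD44, by 0.83 ± 0.15 (adjusted p = 0.0282), where 4.28% of all genes were called, 2.38% higher and 1.90% lower. Both calls were lost without any 1 of the 4 shRNA libraries (adjusted p of 0.0653 to 0.0943 for MET and 0.101 to 0.167 for CD44), and that of CD44 also without either DMSO library (0.06 and 0.0704). For ANXA1 the difference was 0.56 ± 0.24 (adjusted p = 0.241) and did not pass.

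In PC3, 6 of the 10 effects differed between CSN5i-3 and shCSN5, where 39.1% of all genes tested were called, 20.5% higher and 18.6% lower. CDH1 differed by -3.47 ± 0.24 (adjusted p = 6.86e-05), rising with shCSN5 and falling with CSN5i-3. CD44 and VIM also had opposite directions, with differences of 1.10 ± 0.10 (adjusted p = 0.000222) and 0.58 ± 0.073 (adjusted p = 0.000755). MET (0.95 ± 0.13, adjusted p = 0.00112) and ANXA1 (0.67 ± 0.12, adjusted p = 0.00319) rose more with CSN5i-3, and SNAI2 was lower with it (-0.48 ± 0.13, adjusted p = 0.0203; 0.0523 to 0.0819 without 1 of 4 libraries). AXL, at -0.31 ± 0.11 (adjusted p = 0.058; 0.0139 with library totals as the scale), and CAV1, at -0.19 ± 0.10 (adjusted p = 0.185; 0.0363), passed or not with the scale used. Library totals in place of TMM scaling shifted all of these PC3 differences by -0.14. PC3 had 10 µM and the other lines 5 µM, so PC3 inhibitor effects were set against no other line.

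LNCaP and 22Rv1 had the same dose of CSN5i-3. Of 5 genes tested for a difference between them, 3 were called, where 15.6% of all genes tested were, 5.57% higher and 10% lower. With more than 3 counts in every group there were 4 genes, and 3 of these were called. VIM rose by 2.72 ± 0.16 more in LNCaP (adjusted p = 9.44e-05), SNAI2 by 3.23 ± 0.48 (adjusted p = 0.00453) and CDH1 by 0.43 ± 0.12 (adjusted p = 0.0458). The CDH1 difference was lost without any 1 of 7 of the 8 libraries (adjusted p of 0.0648 to 0.191) and in DESeq2 (0.214). MET was at -1.60 ± 0.46 for LNCaP minus 22Rv1 and did not pass (adjusted p = 0.0551). It passed in DESeq2 (adjusted p = 0.00412), with library totals as the scale (0.0456) and without LNCaP DMSO replicate 1 (0.0367).

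**Figure D3:**
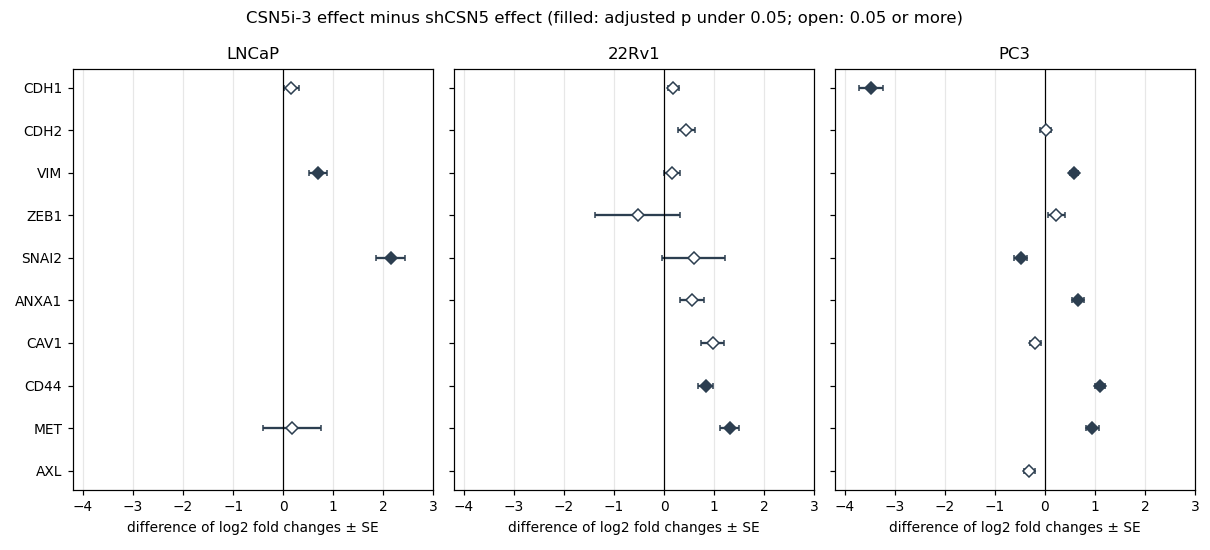
Difference of log2 fold changes, CSN5i-3 effect minus shCSN5 effect, ± SE (horizontal axis) for each gene with more than 3 counts in each of the 4 groups of a line; filled where the adjusted p was under 0.05. In PC3 CDH1 stands alone at -3.47, while CD44, MET, ANXA1 and VIM lie right of 0.

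Genes around these 10 were read from 5 lists, which were chosen with earlier results of these data known. Beside each count stand the shares of all genes tested that were called higher and lower in the same comparison. Among 25 epithelial adhesion and epithelial programme genes, 8 of 25 tested rose and none fell with shCSN5 in LNCaP (all genes 18.3% and 17.4%; median 0.40 against -0.01 over all genes). In C4-2 10 of 25 rose and none fell (all genes 15.7% and 16.2%; median 0.31 against -0.02), and in PC3 4 of 17 rose and none fell (all genes 10.3% and 6.41%; median 0.34 against 0.04). In 22Rv1 14 rose and 2 fell of 25 (all genes 22.6% and 21.3%; median 0.32 against 0.02). ELF3, an epithelial ETS-family transcription factor, rose with shCSN5 in LNCaP (2.42 ± 0.17), C4-2 (2.10 ± 0.15), 22Rv1 (2.50 ± 0.090) and PC3 (2.75 ± 0.19), with adjusted p of 0.00034, 0.000101, 2.31e-08 and 0.00307. It also rose with CSN5i-3 in LNCaP (3.03 ± 0.066), 22Rv1 (2.26 ± 0.21) and PC3 (1.37 ± 0.034). With CSN5i-3, 14 of 25 rose and 2 fell in LNCaP (all genes 26.2% and 26.5%), 9 of 25 rose and 0 fell in 22Rv1 (all genes 11.8% and 12.2%), and in PC3 6 of 20 rose and 11 fell (all genes 38.5% in each direction; median -0.21). Among those that fell was CTNNB1, the gene of the E-cadherin partner beta-catenin, at -0.86 ± 0.026 (adjusted p = 1.28e-36). In PC3 the list's median thus had the sign of the CDH1 change with both treatments.

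Mesenchymal matrix, cytoskeleton and protease genes (27 genes) went in both directions. With shCSN5, 6 rose and 4 fell of 19 tested in LNCaP (all genes 18.3% and 17.4%) and 7 and 2 of 17 in C4-2 (15.7% and 16.2%). In 22Rv1 11 rose and 3 fell of 19 (22.6% and 21.3%), and in PC3 3 and 4 of 24 (10.3% and 6.41%). MYL9, a smooth muscle type myosin light chain, rose with shCSN5 in C4-2 (1.59 ± 0.17) and 22Rv1 (2.25 ± 0.22). It also rose with CSN5i-3 in LNCaP (4.52 ± 0.094) and 22Rv1 (4.24 ± 0.36). TNC, the matrix protein tenascin-C, rose with shCSN5 in LNCaP (2.61 ± 0.23), as did TGFBI (3.29 ± 0.30). TNC fell with shCSN5 in 22Rv1 (-0.83 ± 0.080) and PC3 (-1.30 ± 0.12), and with CSN5i-3 in 22Rv1 (-0.89 ± 0.16). LOX, the collagen cross-linking lysyl oxidase, fell with shCSN5 in LNCaP (-2.79 ± 0.36), C4-2 (-2.63 ± 0.28) and 22Rv1 (-0.75 ± 0.18). With shCSN5, FN1, fibronectin, fell in LNCaP (-1.29 ± 0.12) and C4-2 (-0.68 ± 0.084) and rose in PC3 (1.03 ± 0.085, adjusted p = 0.00444). With CSN5i-3, 11 rose and 4 fell of 19 in LNCaP (median 0.66; all genes 26.2% and 26.5%) and 11 and 4 of 21 in 22Rv1 (median 1.20; all genes 11.8% and 12.2%). In PC3, at its own dose, 2 rose and 18 fell of 24 (median -0.82; all genes 38.5% in each direction). In PC3 with CSN5i-3, TNC was at -2.18 ± 0.031 (adjusted p = 4.27e-53) and PLAU, urokinase, at -1.48 ± 0.022 (adjusted p = 1.71e-51). Fibroblast markers, which share 3 collagen genes with this list, were at 16.1 to 16.3 CPM with CSN5i-3 against 62.3 to 66.4 CPM with DMSO in PC3, and their part in the count was not tested.

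Of 12 other transcription factors of the transition, 5 to 9 had enough counts in a comparison. SOX9 rose with shCSN5 in LNCaP (1.35 ± 0.17), C4-2 (0.67 ± 0.14) and 22Rv1 (1.11 ± 0.10) and fell in PC3 (-0.51 ± 0.090, adjusted p = 0.0224), and with CSN5i-3 rose in LNCaP (0.52 ± 0.10) and 22Rv1 (1.30 ± 0.15) and fell in PC3 (-0.42 ± 0.041). TCF4, the E2-2 basic helix-loop-helix factor, fell with shCSN5 in LNCaP (-1.02 ± 0.25), C4-2 (-1.23 ± 0.17) and 22Rv1 (-1.25 ± 0.13), and with CSN5i-3 in LNCaP (-1.39 ± 0.23) and 22Rv1 (-1.27 ± 0.21). With shCSN5, 1 of 7 rose and 2 fell in LNCaP (all genes 18.3% and 17.4%), 1 and 2 of 5 in C4-2 (15.7% and 16.2%), 2 and 1 of 7 in 22Rv1 (22.6% and 21.3%), and 1 and 1 of 8 in PC3 (10.3% and 6.41%). With CSN5i-3, 1 of 8 rose and 4 fell in LNCaP (26.2% and 26.5%), 3 and 1 of 9 in 22Rv1 (11.8% and 12.2%), and 1 and 5 of 9 in PC3 (38.5% in each direction).

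Among 15 TGF-beta ligands, receptors and SMADs, 6 rose and 1 fell of 12 with shCSN5 in LNCaP (all genes 18.3% and 17.4%), 4 and 2 of 13 in C4-2 (15.7% and 16.2%), 7 and 3 of 15 in 22Rv1 (22.6% and 21.3%), and 4 and 0 of 15 in PC3 (10.3% and 6.41%). TGFB2, a ligand, rose with shCSN5 in LNCaP (2.93 ± 0.29) and PC3 (1.0 ± 0.13) and fell in C4-2 (-1.29 ± 0.20), and it rose in 22Rv1 with CSN5i-3 (3.38 ± 0.22, adjusted p = 0.000597). SMAD3, a receptor-activated SMAD, rose in LNCaP with shCSN5 (1.70 ± 0.15) and CSN5i-3 (1.94 ± 0.081) and in C4-2 with shCSN5 (1.27 ± 0.17). It fell in PC3 with CSN5i-3 (-1.41 ± 0.032). INHBA, a subunit of activin, rose in PC3 with shCSN5 (1.65 ± 0.092) and fell with CSN5i-3 (-1.44 ± 0.030). With CSN5i-3, 6 rose and 1 fell of 13 in LNCaP (all genes 26.2% and 26.5%), 7 and 0 of 15 in 22Rv1 (11.8% and 12.2%), and 10 and 4 of 15 in PC3 (38.5% in each direction).

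Among 25 partners and relatives of the 10 genes, 6 rose and 1 fell of 15 tested with shCSN5 in LNCaP (all genes 18.3% and 17.4%), 6 and 3 of 15 in C4-2 (15.7% and 16.2%), 7 and 2 of 17 in 22Rv1 (22.6% and 21.3%), and 2 and 4 of 18 in PC3 (10.3% and 6.41%). With CSN5i-3, 9 rose and 2 fell of 15 in LNCaP (26.2% and 26.5%), 8 and 1 of 18 in 22Rv1 (11.8% and 12.2%), and 6 and 9 of 18 in PC3 (38.5% in each direction). In 22Rv1 ANXA2, another annexin, rose with shCSN5 (2.90 ± 0.12, adjusted p = 4.05e-08) and CSN5i-3 (5.06 ± 0.17, adjusted p = 0.000247), and CAV2, the partner of CAV1 in caveolae, rose with CSN5i-3 (2.95 ± 0.23). In PC3, where CAV1 fell with shCSN5, CAV2 rose (0.52 ± 0.11, adjusted p = 0.031). EGFR, a receptor kinase as MET is, fell in 22Rv1 with shCSN5 (-0.97 ± 0.081) and CSN5i-3 (-0.50 ± 0.13), and rose in PC3 with CSN5i-3 (0.94 ± 0.029). PROS1, a ligand of the AXL family, fell with shCSN5 in LNCaP (-2.22 ± 0.22), C4-2 (-2.27 ± 0.26) and 22Rv1 (-0.81 ± 0.11). In PC3 HAS3, which makes the CD44 ligand hyaluronan, fell with shCSN5 (-1.56 ± 0.091) and CSN5i-3 (-3.61 ± 0.027), and MERTK, an AXL relative, rose with CSN5i-3 (2.36 ± 0.060, adjusted p = 5.18e-40).

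**Figure D4:**
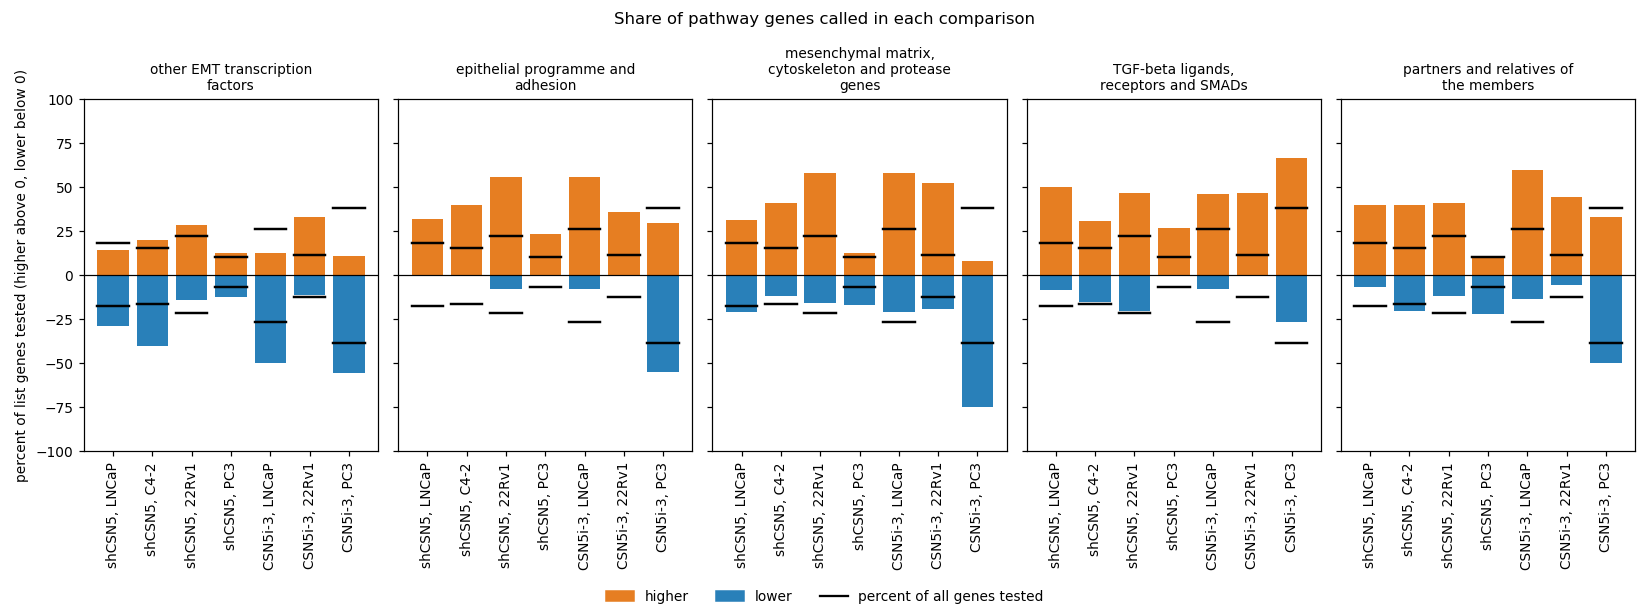
Percent of the genes of each list that were called higher (orange, above 0) or lower (blue, below 0) in each comparison, with black lines at the percent of all genes tested that were called in that direction. For epithelial genes no blue bar is drawn with shCSN5 in LNCaP, C4-2 and PC3, and for mesenchymal genes the longest blue bar (18 of 24 genes) is that of PC3 with CSN5i-3.

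In the C4-2 pairs with conflicting labels, titled C5i libraries against titled NT libraries gave 2 genes higher and 1 lower of 4 tested, where 74.9% of all genes tested were called, 37.0% higher and 37.9% lower. CDH1 was at 1449 and 1391 CPM in the titled C5i libraries, against 606 and 657 CPM in the titled NT libraries (1.36 ± 0.063, adjusted p = 7.02e-09). SNAI2 was at 7.84 and 7.29 CPM in titled C5i and 4.12 and 5.21 CPM in titled NT libraries (0.89 ± 0.15, adjusted p = 0.000282). MET was at 0.529 and 0.848 CPM in titled C5i and 1.61 and 1.67 CPM in titled NT libraries (-1.06 ± 0.30, adjusted p = 0.00791; 0.09 without titled C5i replicate 1, and 0.0593 in DESeq2). VIM, at 24.4 and 26.2 CPM in titled C5i and 27.8 and 27.1 CPM in titled NT libraries, did not pass (0.08 ± 0.095, adjusted p = 0.49), and took the other sign with library totals as the scale, which shifted the values of this comparison by -0.19. ANXA1, CD44 and AXL had 2 to 10 counts in a group, and ZEB1, CAV1 and CDH2 are not listed in that table. Of the lists above, 14 of 25 epithelial genes were higher and 4 lower, and 12 of 20 mesenchymal genes were higher and 7 lower, in titled C5i libraries. Luminal markers summed to 2930 to 2960 CPM in titled C5i and 6730 to 6780 CPM in titled NT libraries. Fibroblast markers summed to 18.6 to 18.7 CPM in titled C5i and 5.15 to 6.99 CPM in titled NT libraries, and leukocyte markers to 48.5 to 49.2 CPM in titled C5i and 16.1 to 16.3 CPM in titled NT libraries. Of the leukocyte sum, CD68 gave 48.2 and 48.8 CPM in titled C5i and 7.24 and 7.28 CPM in titled NT libraries, and PTPRC, CD3E, CD2 and MS4A1 are not listed. Their part in these results was not tested.

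The genes whose levels were most like each of the 10 were found over the 8 group means of the shRNA experiment, as Pearson correlations of log2(CPM + 1) among genes with a mean of at least 5 CPM. The 8 means come from 4 lines, so these values mostly compare lines. The highest were CDC42BPG (0.998) and PTK2B (0.997) for CDH1, MICB (0.998) and TRIM9 (0.997) for CDH2, VTI1B (0.997) and TTLL11 (0.991) for VIM, PTGER2 and PLCE1 (0.999) for ZEB1, and RPL26L1 (0.979) and L3HYPDH (0.976) for SNAI2. They were ANXA2 and CTSA (both 0.991) for ANXA1, MRC2 (0.999) and NFATC2 (0.997) for CAV1, ECHDC1 and SPTBN1 (both 0.997) for CD44, AOX1 (0.997) and AMPD3 (0.996) for MET, and ESM1 and WNT7A for AXL.

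The strand counted is not given in the sources used here, and 6 of the 10 genes share exon bases with a gene on the opposite strand in GENCODE: CDH1, CDH2, VIM (VIM-AS1 among them), ZEB1 (ZEB1-AS1), CD44 (CD44-AS1) and AXL. Their reads and those of the antisense partner cannot be told apart.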

How the data were processed

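RNA from LNCaP, C4-2, 22Rv1 and PC3 cells was sequenced as Illumina libraries, and the authors deposited raw read counts per gene in 6 tables, 1 for each inhibitor experiment and 1 for each pair of lines in the shRNA experiment. Partek, with no version, is named per the submitters' processing notes; aligner, build, annotation and strand are not stated in any label or header. The LNCaP and C4-2 inhibitor tables leave out genes with low counts, and list 6 and 7 of the 10 genes. In the C4-2 inhibitor libraries 0% of counts stood under symbols of mitochondrially encoded genes (prefix MT-), against 2.89 to 5.82% in the shRNA libraries. CPM in those C4-2 libraries is thus taken over a different total.

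Groups and doses came from sample descriptions, and for the C4-2 inhibitor libraries, whose labels conflict, from titles. From the counts, levels were computed as CPM of the library total. Each comparison was fitted with edgeR 4.0.16 (R 4.3.3, limma 3.58.1) on its own libraries: filterByExpr with a minimum count of 10, TMM scaling, quasi-likelihood F test, Benjamini-Hochberg adjustment over all genes tested and a threshold of 0.05. A comparison of 2 groups has 2 residual degrees of freedom, and the SE printed is the size of the log2 fold change over the root of its F value. The scripts were tested on simulated data. Folds against groups with 0 counts use a floor of 3 counts over the group; ratios of low counts carry 95% exact intervals. Intervals and floors cover counting error only. CPM is not per length, so levels are compared within a gene.

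Alternatives were DESeq2 1.42.0, library totals as the scale, no low-count filter, each library left out, the replicate number as a block, and the spread of all 8 libraries of a table. Besides the 10 genes, the genes named from each list are among the up to 2 higher and 2 lower called genes with the smallest adjusted p in a comparison. Not every such gene is named, and not every called value of a named gene is given. For each of the 10, the 2 genes most like it are named. The genes, lists and tests were chosen with earlier results of these data known. Symbols turned into dates (28 in each 22Rv1 table, 21 in that of the LNCaP inhibitor experiment) are not named here. In all, 1 entry without a gene name was left out.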

Additional observations from a re-analysis of the deposited data

Results flagged for a closer look

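The shCSN5 effect on CDH1 was larger in PC3 than in LNCaP, by 1.22 ± 0.20 on the log2 scale (adjusted p = 0.00429), by a test of the difference itself. It rose in both lines, with shCSN5 libraries above scramble libraries in 2 of 2 of each, and the PC3 value rests on 59 scramble counts. The VIM effect differed between the same lines by -2.44 ± 0.14 (adjusted p = 2.94e-05), with both LNCaP shCSN5 libraries above and both PC3 shCSN5 libraries below their controls. Between 22Rv1 and C4-2 the CDH1 effect differed by -0.32 ± 0.090 (adjusted p = 0.0499), just inside the threshold.

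With CSN5i-3 at 5 µM, the effects in LNCaP exceeded those in 22Rv1 by 2.72 ± 0.16 for VIM (adjusted p = 9.44e-05), 3.23 ± 0.48 for SNAI2 (adjusted p = 0.00453) and 0.43 ± 0.12 for CDH1 (adjusted p = 0.0458). SNAI2 was higher than DMSO in both LNCaP CSN5i-3 libraries and lower in both of 22Rv1, where the groups held 35 and 89 counts. Groups of 2 libraries allow no test for a library that stands apart.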

How the results depend on the processing

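Over 100 values of the 10 genes and 938 alternatives, 811 kept direction and side of the threshold, 66 lost the call, 35 gained one and 26, none of them called, changed sign. The count of called genes moved by over 1.5 times in these cases: LNCaP shCSN5 gave 5 with the spread of all 8 libraries in place of 3 (3 shared); PC3 minus LNCaP gave 5 without the filter in place of 3; and 22Rv1 minus C4-2 gave 0 in DESeq2 and 0 with library totals in place of 1. Replicate numbers share no stated source. Their deviations correlated at 0.542 in PC3 shRNA libraries, 0.298 in 22Rv1 shRNA and -0.642 to -0.001 in the other comparisons, so they were not treated as pairs. With the replicate block PC3 shCSN5 gave 9 called genes (5 shared with 5, with CDH2, ZEB1, SNAI2 and MET added), PC3 minus LNCaP 5, 22Rv1 minus C4-2 0, LNCaP shCSN5 4, and the other comparisons of a treated group with its control counts within 1.5 times.

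Leaving out 1 library gave counts of 1 to 4 for LNCaP shCSN5, 1 to 6 for PC3 shCSN5, 3 to 5 for PC3 minus LNCaP, 0 to 1 for 22Rv1 minus C4-2, and 1 to 3 in LNCaP and 0 to 2 in 22Rv1 for CSN5i-3 minus shCSN5. Log2 values that changed sign were ANXA1 in PC3 shCSN5 (-0.06 to 0.1607 with 1 library left out, -0.0032 with the spread of all 8 libraries), VIM in 22Rv1 CSN5i-3 (-0.0244 to 0.0246) and VIM in the titled C4-2 pair (-0.1185 with library totals). For PC3 minus LNCaP, SNAI2 ran from -0.0971 to 0.2074. For 22Rv1 minus C4-2, SNAI2 ran from -0.4584 to 0.1592, VIM from -0.0991 to 0.0644 (-0.0014 in DESeq2, -0.0039 without the filter) and CD44, on 4 scramble counts in C4-2, from -4.825 to 0.1691. For CSN5i-3 minus shCSN5, MET in LNCaP ran from -0.2451 to 0.9005, SNAI2 in 22Rv1 from -0.0518 to 1.061 and CDH2 in PC3 from -0.1284 to 0.1217 (-0.1247 with library totals, -0.0624 without the filter). The cause of these changes was not tested. Library totals shifted the values of PC3 minus LNCaP by 0.17, of scramble 22Rv1 against C4-2 by 0.11 and of LNCaP CSN5i-3 by -0.11.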
